A study of Mus musculus with 11 samples.

Results

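The IgLON genes encode a small family of cell adhesion proteins, and the 5 genes of the family, Lsamp, Ntm, Opcml, Negr1 and Iglon5, were taken by name. All 5 were found among the 48440 genes of the RNA-seq count table and among the 32285 genes of the scRNA-seq matrices. IgLON proteins carry immunoglobulin domains, are held in the outer leaflet of the cell membrane by a glycosylphosphatidylinositol (GPI) anchor, and bind to each other in like and unlike pairs on neighbouring cells. In the developing brain they are known for their part in neurite growth, axon targeting and the forming of synapses. Lsamp (limbic system-associated membrane protein) marks limbic regions, Ntm is neurotrimin, Opcml is an opioid-binding protein-like cell adhesion molecule, Negr1 is a neuronal growth regulator, and Iglon5 is the target of autoantibodies in a human neurological disease.

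The study asked what the loss of Syncrip, an RNA-binding protein, does to neural progenitor cells (NPCs) and their progeny in the mouse neocortex. In Syncrip cKO mice, on a C57BL/6 background, loxP sites flank exons 2 to 4 of both Syncrip alleles, and Emx1-Cre, which acts in the dorsal telencephalon and not in the ganglionic eminence (GE), removes them. RNA-seq was made from NPCs of E14.5 embryos grown with EGF and bFGF, in 3 WT and 3 cKO cultures. scRNA-seq was made from the E14.5 neocortex of 1 WT and 1 cKO embryo of the same pregnant mouse.

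WT and cKO are used here as the labels of the libraries. Total counts ran from 16962903 to 22708400 per culture, and the scRNA-seq libraries held 100172392 UMIs (unique molecular identifiers, each marking 1 captured transcript) in WT and 111313526 in cKO. The Syncrip count, 79.2 ± 1.09 CPM (counts scaled to a common library size; SD, n = 3) in WT and 86.8 ± 4.69 in cKO cultures, was not lower in cKO. A count over the whole gene, or a 3′ tag, is no check of a deletion of exons 2 to 4. By Y-linked counts, 2 WT and 1 cKO cultures were male and 1 WT and 2 cKO cultures were female, while the WT embryo was male and the cKO embryo female, so that sex and genotype cannot be told apart in the scRNA-seq data. Nothing in the labels says that the cultures came from separate embryos, and p-values measure the spread between these cultures. In the cultures, markers of endothelial cells summed to at most 2.54 CPM and those of fibroblasts to at most 1.08 CPM, against 4272 to 5574 CPM for the neural progenitor list. Neuron markers summed to 2092 to 2447 CPM. Astrocyte markers summed to 4007 to 4430 CPM in WT and 2439 to 2751 CPM in cKO cultures. Oligodendrocyte lineage markers summed to 4009 to 4318 CPM in WT and 2983 to 3545 CPM in cKO cultures.

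All members but Iglon5 are among the longest genes of the mouse. In mm10, Lsamp lies on chromosome 16 from 39984361 to 42181679 on the plus strand, a span of 2197 kb, which ranked 6 by length in the table. Opcml (chromosome 9, 27790775 to 28925410, plus strand) spans 1135 kb and Ntm (chromosome 9, 28994750 to 29963141, minus strand) spans 968 kb. These neighbours point towards each other, with 69.3 kb between their ends. Negr1 (chromosome 3, 156561794 to 157316445, plus strand) spans 755 kb, whereas Iglon5 (chromosome 7, 43472904 to 43490075, minus strand) spans 17.2 kb. Nearly all of a long member is intron: exons made up 0.783% of the span of Lsamp, 0.834% of Ntm, 1.28% of Opcml and 1.39% of Negr1, and 15.3% of Iglon5.

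This matters because the table gave each gene a length equal to its whole span. All 983 protein-coding genes that lie inside another gene's span had 0 counts in the 6 cultures, 637 of them inside genes of the opposite strand alone, compared with 16.5% of the 15593 coding genes that do not. The 24 genes listed within the spans of the IgLON genes were also at 0. A culture's count for an IgLON gene is therefore read here as covering exons and introns, with reads in stretches shared by genes left out. No exon base of a member lies in such a stretch. The exons of Ntm and Opcml shared 109 sequences of 31 bases, of 8024 and 14480, and every other pair shared at most 3.

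In the NPC cultures Opcml was higher and Negr1 lower in cKO, and no call was made for Lsamp, Ntm and Iglon5. Opcml stood at 174, 152 and 147 CPM in the 3 WT cultures and at 202, 218 and 202 CPM in the 3 cKO cultures, so every cKO culture lay above every WT culture. Its means were 158 ± 14.7 and 207 ± 9.60 CPM (SD, n = 3 each), a log2 fold change of 0.39 ± 0.08 (SE; edgeR quasi-likelihood test, Benjamini-Hochberg adjusted p = 0.00207). Within female cultures the log2 ratio of Opcml was 0.52 and within male cultures 0.31.

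Negr1, which the protease Adam10 sheds from neurons and which binds the growth factor receptor Fgfr2, moved the other way. It stood at 88.9, 75.8 and 68.1 CPM in WT and at 53.6, 49.8 and 51.0 CPM in cKO cultures, without overlap. The means were 77.6 ± 10.5 and 51.4 ± 1.92 CPM, and the log2 fold change was -0.59 ± 0.10 (edgeR adjusted p = 4.24e-04), with log2 ratios of -0.44 in female and -0.62 in male cultures. Adam10 itself was at 162 ± 14.3 and 175 ± 11.3 CPM (log2 fold change 0.12, edgeR adjusted p = 0.282). Fgfr2 fell from 171 ± 1.4 to 148 ± 6.28 CPM (log2 fold change -0.21, edgeR adjusted p = 0.0327). Its count too was taken over a long span, 2960900 bases, longer than that of Lsamp.

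Lsamp was at 847, 773 and 770 CPM in WT and 817, 761 and 742 CPM in cKO cultures, and the groups overlapped. Its log2 fold change was -0.04, with a 95% interval of -0.22 to 0.13 (edgeR adjusted p = 0.709). Ntm, at 431, 435 and 383 CPM in WT and 440, 390 and 359 CPM in cKO cultures, also overlapped, with a log2 fold change of -0.07 and an interval of -0.27 to 0.13 (edgeR adjusted p = 0.570). The short member, Iglon5, was at 51.7, 63.1 and 59.2 CPM in WT and 48.0, 51.0 and 52.0 CPM in cKO cultures. Its lowest WT culture lay just below the highest cKO culture, and its log2 fold change of -0.20 ± 0.10 missed the threshold (edgeR adjusted p = 0.106); without WT replicate 1 it passed (log2 fold change -0.29, edgeR adjusted p = 0.0104).

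**Figure D1:**
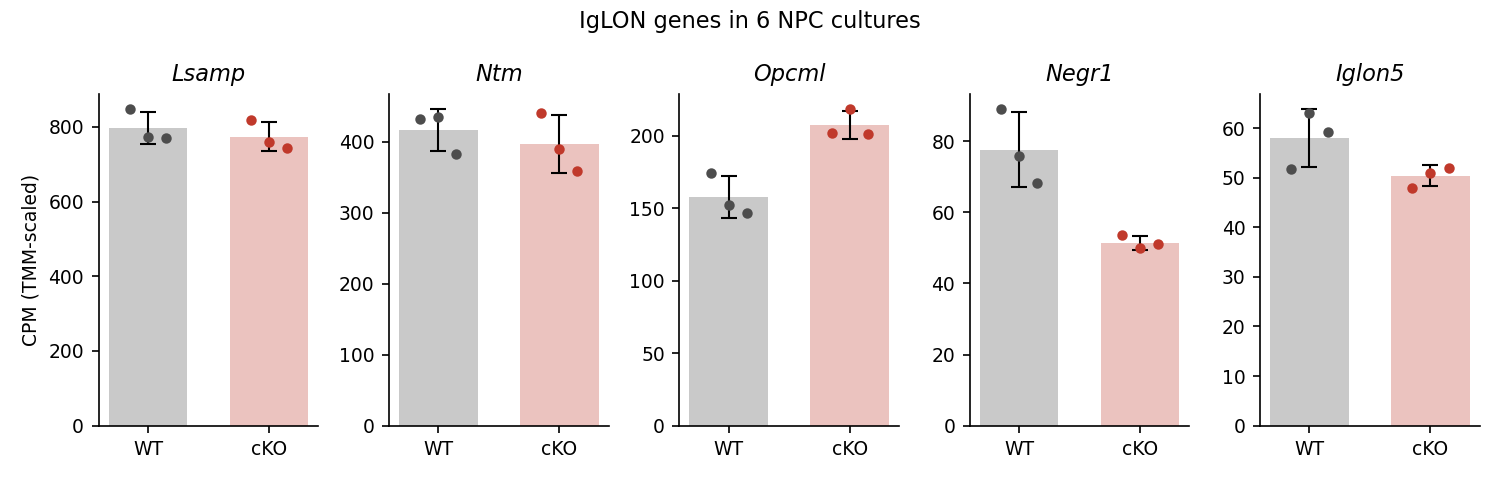
TMM-scaled CPM of each IgLON gene in the WT (grey) and cKO (red) NPC cultures; points are cultures, bars means and error bars SD (n = 3 each), with an axis from 0 of its own for each gene. The cKO points lie above all WT points for Opcml and below all of them for Negr1, and overlap with them for the other genes.

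These counts of members are small against how widely the cultures differed. Of 14432 genes tested, 39.5% were called, 19.7% higher and 19.8% lower in cKO, and 50.4% had groups that did not overlap; of the 5 members, 1 was higher, 1 lower and 2 without overlap. For Opcml and for Negr1 alone, exact permutation of the 6 cultures gave p = 0.1, the smallest value that 3 against 3 allows. Levels of different members can be compared only per length, and the order depended on which length was taken. Per kb of span, WT means ran from Iglon5 (3.38 CPM per kb) over Ntm (0.430), Lsamp (0.363) and Opcml (0.139) to Negr1 (0.103). Per kb of exon, Ntm (51.5 CPM per kb) and Lsamp (46.3) came before Iglon5 (22.1), Opcml (10.9) and Negr1 (7.39).

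The change in cultures went with gene span. The median log2 fold change was -0.11 over the 3798 tested genes under 10 kb and 0.29 over the 203 genes of 500 kb or more, of which 102 were higher and 34 lower. Opcml, at 0.39, was close to the median of these long genes. Lsamp and Ntm, at -0.04 and -0.07, lay below that median and within its quartiles of -0.14 and 0.61, whereas Negr1, at -0.59, lay below the lower quartile. After a smooth trend of fold change with span was subtracted, 0.15 remained for Opcml, -0.34 for Lsamp, -0.30 for Ntm, -0.81 for Negr1 and -0.18 for Iglon5, with no test. Whether the trend reflects introns, mature transcripts or the counting was not tested.

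**Figure D2:**
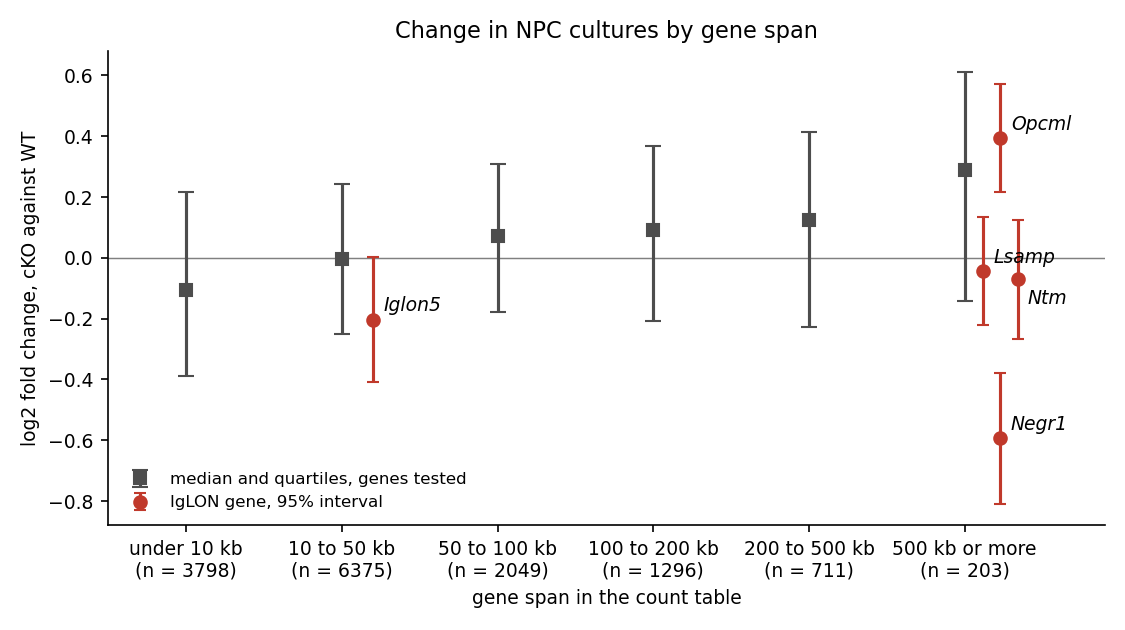
Log2 fold change, cKO against WT cultures, by gene span; squares and bars give the median and quartiles of all tested genes in each span class, and red points the IgLON genes with 95% intervals. Medians rise from -0.11 under 10 kb to 0.29 at 500 kb or more, where Opcml (0.39) lies near the median and Negr1 (-0.59) below the lower quartile.

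Other adhesion genes of the neuronal immunoglobulin superfamily did not share 1 direction. Of 27 genes, all tested, 7 rose, 11 fell and 9 did not pass the test, with a median log2 fold change of -0.02. Those changed at least 2-fold were L1cam (22.97 ± 7.20 against 2.75 ± 0.174 CPM), Cntn2 (83.7 ± 34.5 against 9.27 ± 0.768 CPM), Chl1, Cntn5 and Mdga1, which fell, and Mdga2, which rose. The edgeR adjusted p was 1.73e-07 for L1cam and 1.98e-04 for Cntn2. L1cam and Chl1 belong to the L1 family of axonal adhesion molecules, and Cntn2 is a GPI-anchored contactin of growing axons. Mdga1 and Mdga2, GPI-anchored proteins that bind neuroligins at synapses, went opposite ways: Mdga1 fell from 180 ± 46.6 to 62.4 ± 3.24 CPM and Mdga2 rose from 76.5 ± 3.68 to 169 ± 9.41 CPM.

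None of the 5 subunits of the transamidase that attaches GPI anchors passed the test. Pigk, its catalytic subunit, had a log2 fold change of 0.10, Pigs of -0.09, Pigt of -0.08, Pigu of -0.02 and Gpaa1 of -0.03, with edgeR adjusted p between 0.415 for Pigk and 0.899 for Pigu. Of 12 neuron markers 10 were tested, of which 7 fell, as Negr1 did, and none was called higher (median log2 fold change -0.62). Those that fell included Stmn2, a neuronal tubulin regulator, from 15.1 to 0.152 CPM and Rbfox3, a splicing regulator of mature neurons, from 45.7 to 17.4 CPM. Map2, the most abundant, had no call, at 1444 and 1647 CPM (log2 fold change 0.19, edgeR adjusted p = 0.111). The sums of the list overlapped, at 2092 to 2447 CPM in WT and 2212 to 2347 CPM in cKO. Tubb3 and Nefl of this list were at 0, both inside another gene's span. Of the astrocyte markers 4 of 5 tested fell, and the oligodendrocyte lineage had 2 of 7 higher and 2 lower. The part of these cells in the changes of Opcml and Negr1 was not tested, and in bulk cultures fewer cells of a type and less RNA per cell cannot be told apart.

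The scRNA-seq data show in which cells of the neocortex the members were present. After filtering, 8214 WT and 9560 cKO cells were clustered with the IgLON genes left out, and 23 of 28 clusters were named from markers. They comprised apical progenitors (APs, 2270 cells), intermediate progenitors (IPs, 1047), migrating neurons (4198), immature neurons (2183), cells from the GE (2823) and Cajal-Retzius cells (174), with small classes of microglia, endothelial cells, meningeal fibroblasts and red blood cells; the fibroblast cluster also held the pericyte genes Rgs5 and Vtn. The unnamed clusters held 4608 cells. A total of 22 barcodes occurred in both libraries, and removing them left the ratios of the members in the 5 larger classes and in Cajal-Retzius cells, those with at least 200 UMIs, within their intervals; ratios of single clusters and of all cells were not recomputed. Whether Cell Ranger counted introns is not stated; its version, 7.0.0, does so by default, so levels may include intronic tags. All intervals here are exact 95% intervals and cover counting error only, since there was 1 embryo per genotype; no test between the embryos was made.

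Each member had its own order of classes. Opcml was concentrated in immature neurons, the class with the deep-layer markers Tbr1 and Bcl11b, with levels of 2437 (WT) and 1481 CPM (cKO). Cajal-Retzius cells, the early neurons of the cortical surface that make Reln, followed with 449 and 372 CPM. All other named classes were at or below 148 CPM. Called doublets held 85.7% and 87.0% of the Opcml UMIs of IPs. Without doublets Opcml was at 17.6 and 13.6 CPM in IPs, below APs (45.3 and 50.3), GE cells (65.2 and 61.6) and migrating neurons (93.3 and 56.7). At a fixed depth of 5000 UMIs per cell, 94.2% of WT and 89.3% of cKO immature neurons held an Opcml UMI, compared with 17% and 19% of APs; without thinning the shares were 96.1% and 92.5%, and 28.1% and 32.4%.

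Among the named classes Ntm had its highest level in immature neurons, at 963 CPM in WT and 918 in cKO, while the pooled cells of the unnamed clusters were higher, at 1451 and 1355 CPM. Cajal-Retzius cells had 446 and 586 CPM. GE cells (234 and 201), meningeal fibroblasts (232 and 366), APs (145 and 204), migrating neurons (145 and 201) and IPs (154 and 162) followed. Neighbours among these did not differ beyond the gap between embryos, but the level in IPs was carried by called doublets, with 90.5% and 79.2% of the UMIs, and was 17.9 and 41.0 CPM without them, against 121 and 167 CPM in APs.

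Negr1 was distributed in a different way, with its highest level in migrating neurons, the newborn neurons marked by Neurod1 and Unc5d (797 CPM in WT and 922 in cKO). GE cells followed with 501 and 524 CPM and IPs with 280 and 320 CPM. Cajal-Retzius cells (198 and 344) and immature neurons (163 and 369) overlapped, and APs had 141 and 152 CPM. Within migrating neurons Negr1 was lowest in the cluster led by Ndst3 and Nrp1 (287 and 376 CPM) and at 1052 and 1209 CPM and 1337 and 1295 CPM in the others, so the class was not uniform. Of the others, the cluster led by Kif26b and Eomes, an IP marker, held 1345 cells. At resolution 0.4 a cluster with these leading genes (1930 cells) was named IPs, so the border between these classes depended on the resolution.

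For Lsamp the class with the highest level depended on the embryo, Cajal-Retzius cells (1691 CPM in WT and 947 in cKO) in WT and immature neurons (735 and 1331) in cKO. Migrating neurons (1099 and 963) did not differ from immature neurons beyond the embryos' range. GE cells had 572 and 684 CPM, APs 232 and 352, and IPs 258 and 241. Iglon5 differed least between the neural classes, from 15.9 and 15.7 CPM in APs over 21.8 and 18.4 in IPs to 28.5 and 26.8 in migrating neurons, 31.1 and 30.2 in immature neurons and 34.7 and 31.5 in GE cells.

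**Figure D3:**
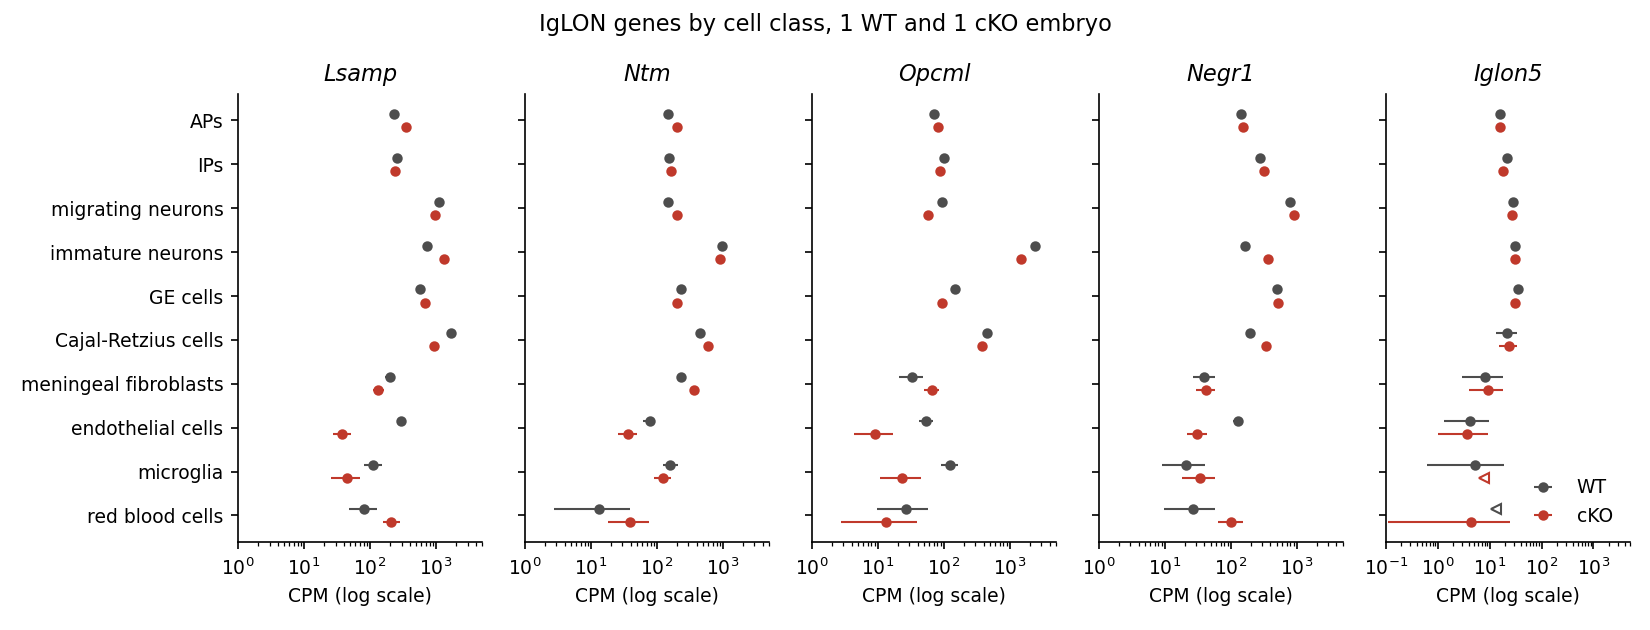
CPM of each IgLON gene in 10 named cell classes of the WT (grey) and cKO (red) embryo, on a log axis; bars are exact Poisson 95% intervals, and open triangles mark the level that a count of 0 allows (3 UMIs). Among these classes Opcml and Ntm are highest in immature neurons and Negr1 in migrating neurons in both embryos, and Lsamp in Cajal-Retzius cells in WT and in immature neurons in cKO.

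Cells that should lack neuronal adhesion proteins give the background. Lsamp in red blood cells was at 80.2 CPM (47.5 to 127) in the WT embryo and 211 CPM (156 to 280) in the other, and Ntm, Opcml and Negr1 at 13.2 to 101 CPM, at median depths of 3570 and 2838 UMIs. Iglon5 had 0 UMIs in WT red blood cells, which allows up to 13.4 CPM. Microglia held Opcml at 123 CPM (90.4 to 164) in WT, above the 71.4 CPM of WT APs, and at 23.6 CPM in cKO; Ntm in WT microglia, at 160 CPM, was also above that of WT APs. The levels of Opcml and Ntm in WT APs were thus not above those of the 31 WT microglia. They were above those of WT red blood cells (26.7 and 13.4 CPM). At a fixed depth of 5000 UMIs, 17% and 29% of WT APs held an Opcml or Ntm UMI. For each gene the share was 10.5% (1.3 to 33.1) of 19 WT microglia. Lsamp in APs was above microglia and red blood cells in both embryos. In WT endothelial cells Lsamp was at 296 CPM (266 to 328), above WT APs, and in WT meningeal fibroblasts at 199 CPM (168 to 234); in cKO these classes were at 37.7 and 134 CPM.

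In APs, Lsamp and Ntm were higher in the cKO embryo. WT APs held Lsamp at 232 CPM, with an interval of 224 to 241, and those of the cKO embryo at 352 CPM (344 to 361). The log2 ratio was thus 0.60 (0.54 to 0.66). Ntm stood at 145 and 204 CPM, giving 0.50 (0.42 to 0.58). At a fixed depth of 5000 UMIs, 34.2% of WT and 52.6% of cKO APs held a Lsamp UMI (46.6% and 67.8% without thinning). Red blood cells were at 13.3% and 11.8%, with 15 and 17 cells deep enough. Endothelial cells were at 43.5% and 6.06% (23 and 33 cells), microglia at 31.6% and 11.8% (19 and 17) and meningeal fibroblasts at 26.2% and 20% (42 and 50). The WT share of APs was thus not above that of WT endothelial cells. AP depth was alike, with medians of 12524 and 12677 UMIs.

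Differences of at least 25% upwards or 20% downwards in the cKO embryo, which are the same fold, were counted. Opcml (0.19), Negr1 (0.11) and Iglon5 (-0.02) lay inside these limits in APs. The sign for Opcml was not stable: it was 0.51 in the cluster led by Aldoc and Hes5 and -0.18 in the dividing cluster led by Cenpf, and -0.03 at resolution 0.4. Negr1 in APs also changed sign, to -0.076 without called doublets and -0.059 in cells thinned to 5000 UMIs. Thus 2 of 5 members passed the limit upwards and none downwards, against 6.06% and 3.71% of the 10379 genes with at least 200 UMIs. Neuron markers moved with them: 9 of 11 such genes were past the upper limit in cKO APs (median log2 ratio 0.56), and the list summed to 782 CPM in WT and 987 in cKO, against a median ratio of -0.01 over all genes. Of the other neuronal immunoglobulin superfamily genes with at least 200 UMIs, 9 of 23 passed the limit upwards in APs and 1 downwards. These counts were 2 and 0 of 20 in IPs, 6 and 0 of 20 in migrating neurons, 2 and 2 of 23 in immature neurons and 1 and 1 of 24 in GE cells. Called doublets made up 5.65% of WT and 9.13% of cKO APs and held 29.5% and 33.5% of their Lsamp UMIs; without them Lsamp was at 181 and 278 CPM (0.61) and Ntm at 121 and 167 CPM (0.46).

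Among the 5 larger named classes, immature neurons showed the widest differences between the embryos, in opposite directions for different members. Negr1 was at 163 CPM (WT) and 369 CPM (cKO), a log2 ratio of 1.17 (1.11 to 1.24), and Lsamp at 735 and 1331 CPM, a ratio of 0.86 (0.82 to 0.89). Opcml, at 2437 and 1481 CPM, had a ratio of -0.72 (-0.74 to -0.70). These signs were shared by the cluster led by Kctd8 (Negr1 1.56, Lsamp 0.92, Opcml -0.77) and the one led by Hs3st4 (0.89, 0.72 and -0.60). Ntm (-0.07) and Iglon5 (-0.04) lay inside the limits. Of all genes with at least 200 UMIs in this class, 4.45% were past the upper and 3.34% past the lower limit, compared with 2 and 1 of the 5 members. The median log2 ratio over the 6 markers of this class was -0.03, and none of them passed either limit. These markers served to name the class, so they cannot show that its make-up was alike. Of the 12 neuron markers, 1 was past the upper and 2 past the lower limit.

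In migrating neurons Ntm was higher (145 and 201 CPM, log2 ratio 0.47, 0.41 to 0.53) and Opcml lower (93.5 and 58.2 CPM, -0.69, -0.78 to -0.59) in cKO. Of all genes 4.49% were higher and 3.3% lower by that measure. The WT levels of Ntm and Opcml in this class were not above those of WT microglia (160 and 123 CPM). Opcml in microglia was lower in cKO too, at 23.6 CPM. Negr1 (0.21), Lsamp (-0.19) and Iglon5 (-0.09) lay inside the limits. The difference of Opcml was found in the cluster led by Ndst3 (-0.83) and, smaller, in the one led by Tfap2d (-0.33), and not in the one led by Kif26b and Eomes (0.08, interval -0.29 to 0.44), where its level was under 17 CPM.

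GE cells, in which Emx1-Cre does not act, were the reference within each embryo. Opcml was lower there too, with 148 (WT) and 92.4 CPM (cKO) (log2 ratio -0.68, -0.79 to -0.57), 1 of 5 members against 2.8% of all genes lower and 0 against 3.65% higher. That value rested on cells called doublets, which held 63.2% of the Opcml UMIs of WT and 43.9% of those of cKO GE cells. Without them Opcml was at 65.2 and 61.6 CPM, a ratio of -0.081. Lsamp (0.26), Ntm (-0.22), Negr1 (0.06) and Iglon5 (-0.14) lay inside the limits in GE cells. Ntm passed the lower limit without doublets, at 189 and 142 CPM (-0.41), and Lsamp the upper limit in cells thinned to 5000 UMIs (0.32) and with clusters weighted equally (0.45).

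In IPs no member passed the limits, against 4.97% of genes higher and 3.49% lower, but this too hung on doublets. The IP cluster with the deepest cells, a median of 25864 UMIs in WT, was called doublet in 92.9% of its WT and 87.8% of its cKO cells, and called doublets held 90.5% of the Ntm and 72.5% of the Lsamp UMIs of WT IPs. Without them Lsamp was at 86.4 and 128 CPM (log2 ratio 0.57) and Ntm at 17.9 and 41.0 CPM (1.19). Red blood cells held Lsamp at 80.2 and 211 CPM and Ntm at 13.4 and 39.6 CPM. These levels in IPs were thus near or below that background. Negr1 in IPs was less affected, at 269 and 279 CPM without doublets.

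Among the 174 Cajal-Retzius cells Lsamp was lower in cKO (1691 and 947 CPM, log2 ratio -0.84, -0.95 to -0.73) and Negr1 (198 and 344 CPM, 0.80, 0.54 to 1.06) and Ntm (446 and 586 CPM, 0.39, 0.21 to 0.57) higher. In this class 7.51% of 2145 genes were past the upper and 8.76% past the lower limit. Without called doublets Ntm was at 0.28, inside the limits, and Opcml, at -0.27 with them, at -0.41. In endothelial cells, of which there were 24 and 33, Lsamp was at 296 CPM (WT) and 37.7 CPM (cKO). Both of the larger unnamed neuronal clusters, led by Cdh12 and by Slit3, had less Opcml in cKO: 504 and 240 CPM (-1.07) in the first, 843 and 275 CPM (-1.61) in the second. Both had more Negr1 (0.97 and 0.85) and more Lsamp (0.13 and 0.50), and Ntm lay at -0.07 and -0.04. A further unnamed cluster, led by Tafa1, held 6 WT and 169 cKO cells, and its levels were not compared. Over all cells of an embryo, the level of Opcml was 605 (WT) and 346 CPM (cKO) (-0.81), and Negr1 at 337 and 411 CPM (0.29).

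**Figure D4:**
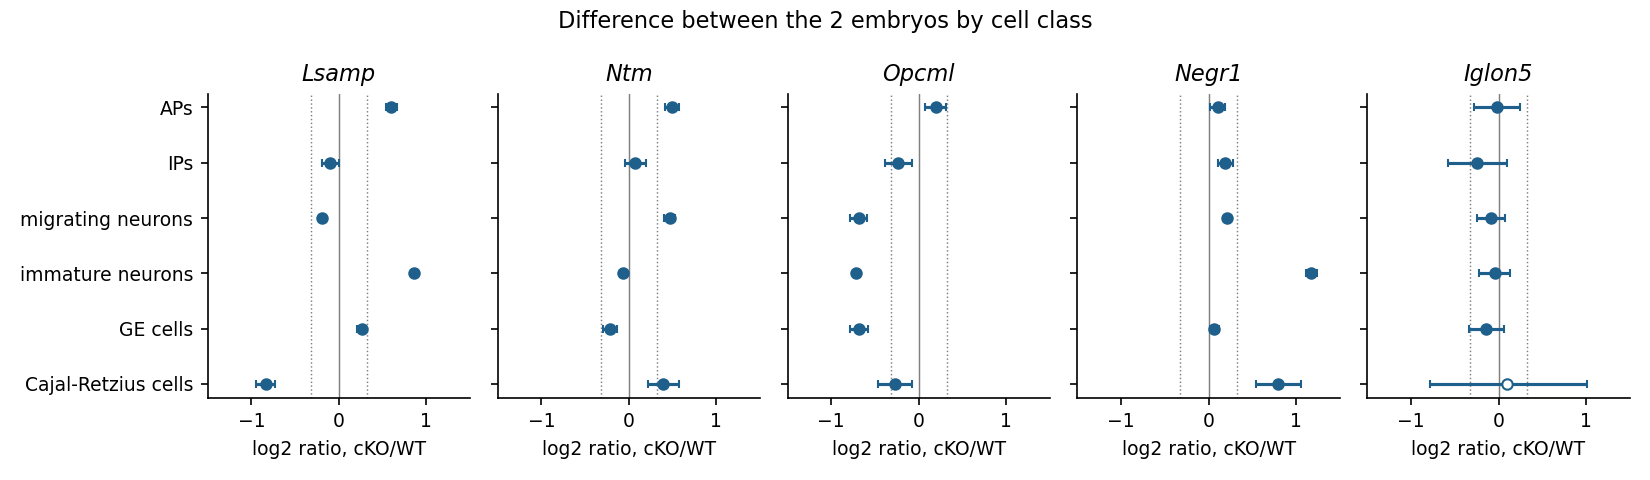
Log2 ratio of cKO over WT for each IgLON gene in 6 cell classes, 1 embryo per genotype; bars are exact 95% intervals for counting error, dotted lines mark 25% higher and 20% lower and the open point has under 200 UMIs. Opcml lies left of 0 in migrating and immature neurons (-0.69 and -0.72), and Lsamp lies right of 0 in APs and immature neurons (0.60 and 0.86) and left of it in Cajal-Retzius cells (-0.84).

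The directions in culture and in the embryo were not the same. Opcml, higher in cKO cultures, was lower over all cells of the cKO embryo and in migrating and immature neurons. In migrating neurons, however, its WT level was not above that of WT microglia. Negr1, lower in cKO cultures, was higher over all cells and in immature neurons. In APs neither passed a limit and neither had a stable sign. Lsamp and Ntm, without a call in the cultures, were higher in cKO APs. The cultures were NPCs grown with growth factors and counted over whole spans. The embryo was read at 3′ ends in mixed cells, of which APs made up 11.6% in WT and 13.8% in cKO. The difference between these settings was not tested.

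Finally, the genes whose pattern over 10 named classes was most like that of each member were sought among 12017 genes, by Pearson correlation of log2(CPM + 1), as a description over classes that share 2 libraries. For Opcml they were Rapgefl1 (r = 0.98), Sncb (0.97), which encodes beta-synuclein, and Sv2b (0.96), a synaptic vesicle protein. Negr1 went with Sorbs2 (0.96), Map3k9 (0.94) and Mgat5b (0.94), Lsamp with Ctxn1, Nyap1 and Dusp8 (0.96 each), Ntm with Fcor (0.96), Zfp575 (0.96) and Tceal5 (0.95), and Iglon5 with Pdzd4, Cplane1 and Strbp (each 0.99). Among the members, Ntm and Opcml were most alike (r = 0.88), and Ntm and Negr1 least (0.37).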

How the data were processed

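For RNA-seq, the authors deposited raw read counts per gene for each culture, aligned to mm10 with HISAT2 per the submitters' notes; the counter is not given in the sources used here. For scRNA-seq the deposited values are raw UMI counts per barcode from Cell Ranger 7.0.0. LACE-seq was not analysed here. RNA-seq counts were filtered by filterByExpr (14432 genes), scaled by TMM and tested in edgeR 4.0.16 (robust quasi-likelihood, R 4.3.3, Benjamini-Hochberg at 0.05), where the study used DESeq2. On simulated counts 98% of 200 genes changed at least 2-fold were recovered and 3.92% of calls were false. Smaller changes, such as those of Opcml and Negr1, were not simulated. Spans and exons were matched to GENCODE M21.

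Cells in which 200 or more genes were detected and mitochondrial UMIs made up no more than 10% were clustered in Seurat 5.3.0 (1970 variable genes, 30 components, resolution 0.8); limits for naming clusters were set after clusters had been seen. Scrublet (scanpy 1.11.5) called 298 WT and 451 cKO doublets, which were kept. Named were the 5 members, 3 neighbours in pattern each, and listed genes by the stated folds. Alternatives were other scalings, filters, tests, blocks, cultures left out, resolutions, cell filters, depths and weights. Members and lists were chosen with earlier results of these data known.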

Additional observations from a re-analysis of the deposited data

Results flagged for a closer look

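Several members moved in opposite directions in 2 settings under the same contrast, cKO against WT; with 1 embryo per genotype none of these differences was tested. The log2 ratio of Lsamp was 0.86 in immature neurons and -0.19 in migrating neurons. That of Ntm was 0.50 in APs and -0.22 in GE cells, and that of Opcml 0.19 in APs and -0.72 in immature neurons. Lsamp in migrating neurons, Ntm in GE cells and Opcml in APs lay inside the limits of 25% upwards and 20% downwards. The intervals left out 0 but cover counting error only. The sign of Opcml in APs was not stable, with values from -0.10 to 0.23 under other settings, and its level in WT APs was not above that of WT microglia. Opcml had a log2 fold change of 0.39 in the cultures and a log2 ratio of -0.81 over all cells of the embryos, and Negr1 had -0.59 in the cultures and 0.29 over all cells. The cultures were NPCs, whereas APs made up 11.6% of all cells in WT and 13.8% in cKO.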

How the results depend on the processing

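In the cultures Opcml stayed higher and Negr1 lower under each of 14 other fits, with edgeR, DESeq2 or limma-voom adjusted p up to 0.0178 and 0.00385, and Lsamp and Ntm stayed without a call (adjusted p from 0.239 to 0.982). Leaving out each culture in turn gave log2 fold changes of 0.34 to 0.46 for Opcml, -0.68 to -0.49 for Negr1 and -0.29 to -0.15 for Iglon5, which passed the threshold without WT replicate 1 alone. Subtracting the trend with span gave -0.34 for Lsamp, -0.30 for Ntm, 0.15 for Opcml and -0.81 for Negr1. Genes called ran from 4108 to 6405, against 5701. With a replicate block 6405 genes were called and no member changed its call. Same-numbered cultures correlated at 0.26, -0.05 and 0.12, and differently numbered cultures of the other genotype at -0.34 to 0.29. With so few cultures per genotype, these correlations cannot decide whether same-numbered cultures shared more than a number.

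All 8 differences of at least 25% upwards or 20% downwards in the 5 larger scRNA-seq classes kept their direction under 9 alternatives, 2 of them (shared barcodes, and the AP cluster of low UMI count, removed) chosen after seeing the data. All 9 reused the same embryos, and removing that AP cluster could change values in APs alone. Opcml in GE cells fell inside these limits without doublets (-0.081), and was -0.35 thinned to 5000 UMIs, -0.57 at resolution 1.2 and -0.98 with clusters weighted equally. Other values left their intervals: Lsamp in APs 0.76 thinned; Ntm in migrating neurons 0.71 and Lsamp in immature neurons 0.79 at resolution 0.4; with equal weights Lsamp 0.76, Opcml -0.69 and Negr1 1.04 in immature neurons; at resolution 1.2 Opcml -0.74 and Negr1 1.36 there; without doublets Negr1 1.28. The causes were not tested. Among the values inside the limits, Ntm in IPs moved to 1.14 at resolution 0.4. Without doublets it moved to 1.19, at levels near those of red blood cells. In Cajal-Retzius cells Lsamp ran from -1.05 to -0.68, Negr1 from 0.60 to 0.85 and Ntm from 0.28 to 0.52.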
